A study of Mus musculus with 8 samples.

Results

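The genes of microglia and of activated microglia, Spp1 among them, were followed in the cerebral cortex of mice carrying the L192P substitution in Ago2. The members were 35 named genes, taken from the 55416 genes of the count table by symbol: 11 genes of resting (homeostatic) microglia, 5 complement genes, 4 immune receptors and adaptors, 8 genes of activated microglia, 4 lysosome genes and 3 genes of border macrophages and antigen presentation. All 35 were present, and 33 of them had enough counts for an adjusted test.

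Polyadenylated RNA from cortex was sequenced in 4 libraries of mice heterozygous for the knock-in (genotype AGO2_L192P/+, called L192P below) and 4 libraries of wild-type controls (WT). The allele was made by CRISPR/Cas in C57BL/6JUke embryos with a repair template that also carried a silent change of the PAM, and founders were bred to C57/Bl6 wild-type animals, so the L192P allele is present in every cell type of the cortex and 1 wild-type allele remains. Age and sex are not stated in the sources used here, nor how many founder lines or whether each library is 1 animal, so the p-values measure the spread between these libraries. The comparison asks which transcripts differ in abundance between both genotypes.

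Microglia are the resident macrophages of the brain. In the resting state they depend on the receptor Csf1r and carry surface proteins such as Tmem119, the nucleotide receptor P2ry12 and Cx3cr1, which senses the neuronal ligand fractalkine. The receptor Trem2 with its adaptor Tyrobp drives the passage to an activated state with higher lipid handling, phagocytosis and lysosome genes, in which Spp1, the gene of the secreted phosphoprotein osteopontin, is a known marker. Spp1 is also made by other brain cells, among them border macrophages and fibroblasts of the meninges. In RNA of whole tissue, fewer cells of a type and less RNA per cell cannot be told apart.

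Depth ran from 20396357 to 43575900 counts per library, and values are given as normalized counts, which are counts divided by a size factor per library. Calls were made with DESeq2, at an adjusted p (Benjamini-Hochberg over all tested genes) under 0.05. The libraries numbered 1 in both genotypes stood apart from the other 6: they had 0.93 and 1.82 normalized counts of Xist, the noncoding RNA of the inactive X chromosome, against 5185 to 7257, and 3547 and 3534 counts on chromosome Y against 186 to 573. This is the pattern of male tissue in the libraries numbered 1 and of female tissue in the other 6, though no label states sex. Sex cannot be told apart from anything else that set the libraries numbered 1 apart. Results are therefore also given for the 3 against 3 libraries numbered 2 to 4. Ago2 itself, the targeted gene, was at 2291 ± 75.1 (L192P) and 2246 ± 130.4 (WT) normalized counts (SD, n = 4; DESeq2 adjusted p = 0.968). The knock-in changes a codon, so the level of Ago2 does not check the genotype labels. The cortical markers Slc17a7 and Tbr1 were present in every library, and the lowest value of either was 2380 normalized counts.

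Sequences are shown first for the stretches of the Spp1 3′ UTR that match a miRNA the study discusses for it, miR-5121. Ago2 carries a miRNA, whose bases 2 to 8 (the seed) pair with sites in the 3′ UTR of target mRNAs. The mature RefSeq sequence of miR-5121 lies at chr7:44776349-44776369 on the minus strand of GRCm39. Its seed is in capitals.
mmu-miR-5121: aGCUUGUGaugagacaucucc
The 3′ UTR of Spp1 is 432 bases long in the canonical GENCODE M39 transcript and holds 2 matches to the letters ACAAGCA, which pair with bases 2 to 7 of the miRNA and end in an A. They start 18 bases apart, at positions 289 and 307 of the UTR. The match is in capitals in each stretch, on the plus strand of chromosome 5.
Spp1, chr5:104588773-104588778: gtatgtagaaACAAGCAaatttactga
Spp1, chr5:104588791-104588796: atttactgaaACAAGCAgaattaaaag

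The coordinates and positions are those of the 6 letters ACAAGC, which pair with bases 2 to 7, for the Tmem119 stretch too, where the capitals hold 1 more base that pairs. ACAAGCA was found in 13.2% of the 14891 tested genes with a 3′ UTR and in 3 of the 35 members, Csf1r, Fcgr3 and Spp1. A match to the whole seed, CACAAGC, was found in 11.2% of these genes and in 1 member, Tmem119, at position 623 of its 1176 bases. Matches to the 6 letters ACAAGC, which the longer sites include, were found in 30.0% of genes and in 7 of 35 members. A match is a description of the letters only, and the level of the miRNA was not measured in these libraries. The Tmem119 and Fcgr3 stretches are printed for comparison with the sites of Spp1, each on the minus strand.
Tmem119, chr5:113932329-113932334: tgtgcccctcCACAAGCtgacatggct
Fcgr3, chr1:170879153-170879158: aaagcaacttACAAGCAggccgggatg

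A feature that some members share at their start is the PU.1 motif GAGGAAGT. PU.1, the product of Spi1, is a defining transcription factor of the macrophage lineage. Both strands of the 300 bases around each start (250 before and 50 after) were searched. The motif was found in 4 of 35 members (11.4%) and in 3.09% of the 21627 promoters of coding genes. In C1qc, Tyrobp, Fcer1g and Ctss it lay on the strand opposite to the gene, which is the strand printed, with the motif in capitals.
C1qc, chr4:136620413-136620420: gtgccaaaatGAGGAAGTgtctgccgtc
Tyrobp, chr7:30113183-30113190: ccaagtgaagGAGGAAGTgtgaggtggg
Fcer1g, chr1:171062269-171062276: gtcggagcagGAGGAAGTgaggggaaag
Ctss, chr3:95434095-95434102: catccacaatGAGGAAGTgaactttcat

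The composite motif of PU.1 and an interferon regulatory factor (the letters GGAA, any 2 bases and GAAA, on either strand) was found in 2 of 35 members, Clec7a and Cd74, and in 2.97% of promoters. It does not overlap the GAGGAAGT matches, which are in other genes.

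Spp1 was the only 1 of the 33 tested members that passed the test over all genes, and it was higher in L192P. Among all 18627 genes tested, 1.36% were called and 0.789% were called higher in L192P. Of the 35 members, 26 had a log2 fold change above 0, against 50.6% of all tested genes, and the median over the members was 0.22, against 0.0019 over all tested genes. The fold changes above 0 were small for most members, and 7 of the 35 had an unadjusted p under 0.05, all with a higher mean in L192P, where 9.44% of all tested genes did and 4.94% were higher. No member had groups that did not overlap, against 5.97% of all tested genes.

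Spp1 (ENSMUSG00000029304, GRCm39 chromosome 5, 104582165 to 104589235, plus strand) had 213.9, 269.7, 388.6 and 279.1 normalized counts in L192P libraries 1 to 4. In WT libraries 1 to 4 it had 214.0, 200.5, 156.4 and 175.6. The groups met at the libraries numbered 1, which had the same level, while the other 3 L192P libraries were above every WT library. The means were 287.8 ± 73.1 in L192P and 186.6 ± 25.7 in WT (SD, n = 4), a 1.53-fold difference. The log2 fold change was 0.62 (SE 0.17, DESeq2 adjusted p = 0.0326). Over all 70 splits of the 8 normalized counts, the exact permutation test (two-sided), which exchanges all libraries and leaves out the pairing by number, of the difference of 101.2 between the means gave p = 0.0571, where 0.0286 is the smallest the design allows. The call was lost without L192P library 3, the highest, where the log2 fold change was 0.44 and the DESeq2 adjusted p 0.251 (range over 19 alternatives 0.000608 to 0.251). Removal of any 1 of L192P libraries 2 and 4 and WT libraries 2, 3 and 4 also ended the call, with adjusted p-values of 0.0820, 0.0912, 0.0767, 0.186 and 0.170, and so did the other tools, with 0.177 for edgeR. Without both libraries numbered 1 the means were 312.5 ± 66.1 and 177.5 ± 22.1 (SD, n = 3), the log2 fold change was 0.81 and the DESeq2 adjusted p was 0.000608. For Spp1, L192P library 1 was the lowest of its genotype and WT library 1 the highest of its own. Leaving out both thus raises the L192P mean and lowers the WT mean, so the smaller adjusted p is no added support. The study singled out Spp1 on these same libraries, so the call is not independent evidence of its direction. Gm42793 shares exons with Spp1 on the same strand, so reads of both may have been counted together or left out.

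**Figure D1:**
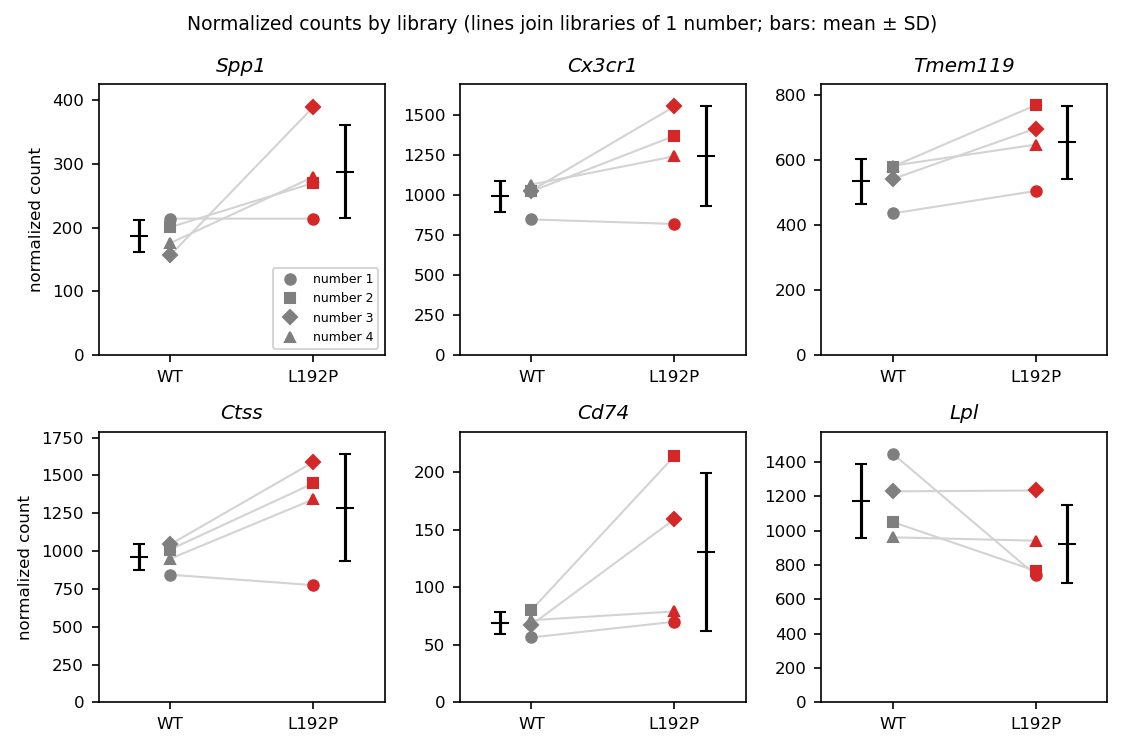
Normalized counts (y axis, from 0) of 6 members in WT (grey) and L192P (red) libraries, with a symbol for each replicate number, a line joining the libraries of 1 number, and black bars for the mean ± SD of 4 libraries. For Spp1 the libraries numbered 1 were level at 213.9 and 214.0, and for Cx3cr1, Ctss and Cd74 the L192P libraries numbered 2 and 3 were the highest.

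The 11 homeostatic genes were Cx3cr1 (fractalkine receptor), P2ry12 (ADP receptor), Tmem119 (microglial membrane protein), Csf1r (receptor of the survival factors Csf1 and Il34), Fcrls (an Fc receptor-like protein), Siglech (a sialic acid binding lectin), Sall1 (a transcription factor of microglial identity), Selplg (a selectin ligand), Laptm5 (a lysosomal membrane protein), Ly86 (partner of an innate immune receptor) and Aif1 (the actin-binding protein Iba1). By DESeq2 0 of 11 passed the test and 3 had an unadjusted p under 0.05, and by edgeR 0 passed and 2 had an unadjusted p under 0.05. The log2 fold change was above 0 for 10 of 11, from -0.055 for Aif1 to 0.33, with a median of 0.23. In the 3 against 3 libraries it was above 0 for 11 of 11, with a median of 0.31, and 3 passed (Cx3cr1, P2ry12 and Laptm5), where 3.46% of all tested genes passed, 1.65% were called higher and 49.1% were above 0.

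Cx3cr1 (ENSMUSG00000052336, chromosome 9, 119877749 to 119898945, minus strand) had 821.2, 1372, 1557 and 1245 normalized counts in L192P libraries 1 to 4 and 849.6, 1025, 1030 and 1068 in WT. L192P library 1 was the lowest of the 8, and the other 3 L192P libraries were the highest. The means were 1249 ± 312.4 and 993.1 ± 97.5 (SD, n = 4). For Cx3cr1 the log2 fold change was 0.33 (SE 0.15, DESeq2 adjusted p = 0.409). With the replicate number as a block the adjusted p was 0.0416, and without the libraries numbered 1 the log2 fold change was 0.42 with an adjusted p of 0.000608 (range over 19 alternatives 0.000537 to 0.930).

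P2ry12 (ENSMUSG00000036353, chromosome 3, 59123682 to 59170429, minus strand) had 478.3, 841.0, 918.9 and 911.6 normalized counts in L192P and 644.7, 659.2, 732.2 and 655.6 in WT. Its order was the same as for Cx3cr1: L192P library 1 was below every WT library and the other 3 were above. Over 4 against 4 libraries P2ry12 had a log2 fold change of 0.23 (SE 0.16, DESeq2 adjusted p = 0.756), and without the libraries numbered 1 it was 0.38 with an adjusted p of 0.00399 (range over 19 alternatives 0.00149 to 0.9998).

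Tmem119 (ENSMUSG00000054675, chromosome 5, 113931781 to 113938577, minus strand) had 505.4, 769.3, 697.6 and 648.0 normalized counts in L192P and 436.2, 580.1, 542.1 and 583.0 in WT. Here L192P was higher than WT within each replicate number, and WT library 1 was the lowest. For Tmem119 the log2 fold change was 0.29 (SE 0.13, DESeq2 adjusted p = 0.413). Laptm5 had 445.6, 722.6, 918.9 and 657.6 in L192P and 498.1, 515.2, 609.4 and 558.4 in WT. For Laptm5 the log2 fold change was 0.33 (SE 0.16, DESeq2 adjusted p = 0.498), and without the libraries numbered 1 it was 0.45 with an adjusted p of 0.0134 (range over 19 alternatives 0.00628 to 0.949). L192P library 1 was thus the lowest of the 8 for Laptm5 and the second lowest for Tmem119.

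Csf1r had 1306, 2044, 2323 and 1736 normalized counts in L192P and 1260, 1748, 1724 and 1642 in WT. The libraries numbered 1 were the lowest of each genotype, and L192P libraries 2 and 3 were the highest. For Csf1r the log2 fold change was 0.22 (SE 0.20, DESeq2 adjusted p = 0.857). Fcrls, Siglech, Sall1, Selplg, Ly86 and Aif1 lay between -0.055 and 0.31 in log2 fold change (DESeq2 adjusted p from 0.574 to 0.987). Aif1, at 125 ± 43.0 in L192P and 129.1 ± 13.9 in WT (SD, n = 4), was the only homeostatic member with a log2 fold change below 0, and it turned to 0.079 without the libraries numbered 1.

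**Figure D2:**
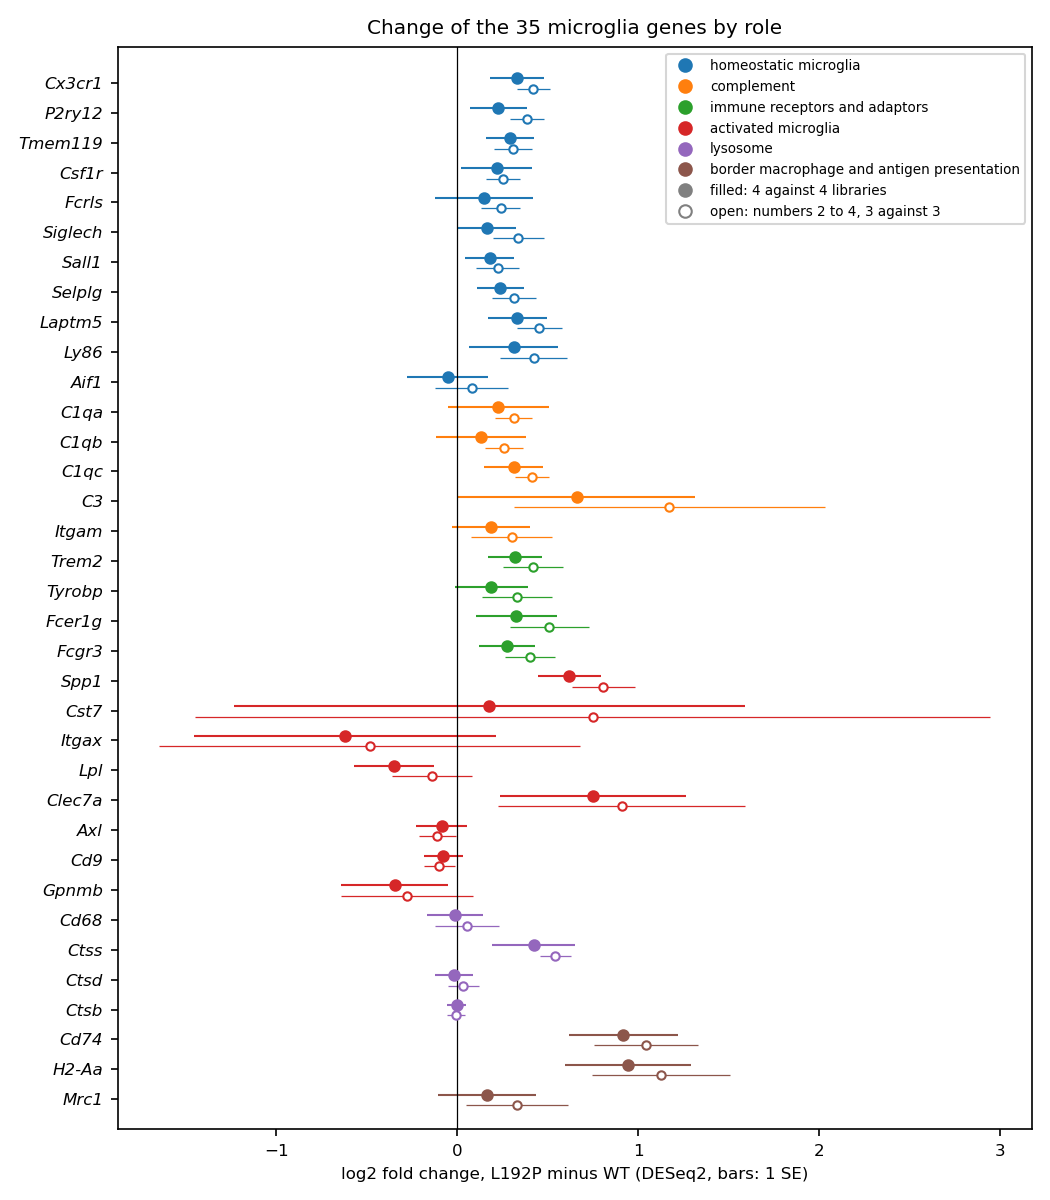
Log2 fold change of L192P against WT (x axis, DESeq2 estimate) for the 35 members in order of role, with bars of 1 SE; filled points are 4 against 4 libraries and open points 3 against 3 libraries numbered 2 to 4. Most homeostatic, complement and receptor genes lie between 0 and 0.5, while genes of activated microglia lie on both sides of 0.

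The complement members were C1qa, C1qb and C1qc, the chains of the C1q protein that tags synapses and debris, C3, the central complement protein, and Itgam, a subunit of the complement receptor CR3. By DESeq2 0 of 5 passed, 0 had an unadjusted p under 0.05, and edgeR also gave 0 at either level among the 4 it tested. All 5 had a log2 fold change above 0, with a median of 0.23. C1qa had 512.9, 1116, 1087 and 915.2 normalized counts in L192P and 594.6, 897.0, 759.3 and 852.2 in WT. The spread within L192P, with library 1 the lowest of all 8, was larger than the difference between the genotypes. Its log2 fold change was 0.23 (SE 0.28, DESeq2 adjusted p = 0.917). C1qc, named here because it passed without the libraries numbered 1, then differed by 0.41 on the log2 scale (DESeq2 adjusted p = 0.00117, range over 19 alternatives 0.000750 to 0.948). C3 was close to the detection limit, with 2 to 14 counts per library.

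The immune receptors and adaptors were Trem2, the lipid receptor of microglia, Tyrobp, its signalling adaptor, Fcer1g, the common signalling chain of Fc receptors, and Fcgr3, a receptor of immunoglobulin G. By DESeq2 0 of 4 passed the test and 1 had an unadjusted p under 0.05, as with edgeR. Trem2 (ENSMUSG00000023992, chromosome 17, 48653429 to 48661175, plus strand) had 226.1, 323.2, 311.3 and 248.0 normalized counts in L192P and 227.7, 252.5, 221.6 and 181.5 in WT. The groups overlapped, with the library numbered 1 in L192P at the level of that in WT. For Trem2 the log2 fold change was 0.32 (SE 0.15, DESeq2 adjusted p = 0.439). Tyrobp, Fcer1g and Fcgr3 had log2 fold changes of 0.19, 0.33 and 0.27. The median over the 4 genes was 0.30, and 0.41 without the libraries numbered 1, where 0 of 4 passed and 2 had groups that did not overlap, both higher in L192P, against 9.91% of all tested genes that were higher and 10.9% that were lower.

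The activated microglia members beside Spp1 did not share its direction as a list. They were Cst7 (a cystatin that inhibits lysosomal proteases), Itgax (the integrin CD11c), Lpl (lipoprotein lipase), Clec7a (the glucan receptor dectin-1), Axl (a receptor for apoptotic cells), Cd9 (a tetraspanin) and Gpnmb (a glycoprotein of lipid-laden macrophages). The median log2 fold change over the 8 genes was -0.082, and 3 of 8 were above 0 (Spp1, Clec7a and Cst7). Cst7 and Itgax had at most 3 and 8 counts in a library and no adjusted p, so no difference was detectable at this depth. Clec7a had 6 to 16 counts per library, with a log2 fold change of 0.75 (SE 0.51, DESeq2 adjusted p = 0.743).

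Lpl is named in full for its contrast with Spp1, a choice made after its values were seen. It had 742.7, 765.9, 1234 and 941.5 normalized counts in L192P and 1449, 1051, 1229 and 961.1 in WT. L192P library 3, the highest for both Lpl and Spp1 within its genotype, was level with WT library 3, while L192P libraries 1, 2 and 4 were below every WT library. For Lpl the log2 fold change was -0.35 (SE 0.22, DESeq2 adjusted p = 0.691). Without L192P library 3 it was -0.52 with an adjusted p of 0.0215 (range over 19 alternatives 0.0215 to 0.994). Axl, Cd9 and Gpnmb had log2 fold changes of -0.088, -0.077 and -0.35 (DESeq2 adjusted p = 0.948, 0.933 and 0.831).

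The lysosome members were Cd68 (a membrane protein of macrophage lysosomes) and the proteases Ctss, Ctsd and Ctsb. By DESeq2 0 of 4 passed and 0 had an unadjusted p under 0.05, and by edgeR 0 passed and 1 had an unadjusted p under 0.05. Cd68, Ctsd and Ctsb had log2 fold changes of -0.015, -0.018 and -0.0036, and all 3 turned above 0 with size factors from total counts, to 0.0082, 0.0056 and 0.021. Ctss, a protease of macrophages, had the only log2 fold change above 0 in this list. It had 775.4, 1448, 1588 and 1342 normalized counts in L192P and 844.1, 1011, 1044 and 949.4 in WT, and is given in full because of its value without the libraries numbered 1. L192P library 1 was the lowest of the 8 and the other 3 L192P libraries were the highest. For Ctss the log2 fold change was 0.42 (SE 0.23, DESeq2 adjusted p = 0.585) over 4 against 4 libraries, and 0.54 with an adjusted p of 2.27e-07 over 3 against 3 (range over 19 alternatives 2.27e-07 to 0.952).

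Cd74, the invariant chain of MHC class II, and H2-Aa, a class II chain, had the largest log2 fold changes among the members. Cd74 had 70.1, 213.9, 159.1 and 79.1 normalized counts in L192P and 56.5, 80.2, 67.4 and 71.4 in WT. L192P libraries 2 and 3 were far above the rest, and libraries 1 and 4 were within the WT range. For Cd74 the log2 fold change was 0.92 (SE 0.30, DESeq2 adjusted p = 0.116). Without L192P library 2 it was 0.57 with an adjusted p of 0.635. With the replicate block it was 0.81 and the adjusted p was 0.0441 (range over 19 alternatives 0.00511 to 0.635). H2-Aa had 37.4, 113.8, 56.5 and 46.7 in L192P and 32.8, 44.6, 27.2 and 25.8 in WT. Library 2 was the highest in each genotype. For H2-Aa the log2 fold change was 0.94 (SE 0.35, DESeq2 adjusted p = 0.202), and 0.49 without L192P library 2. Exons of H2-Eb1 overlap H2-Aa on the other strand, and no source used here says whether reads were counted by strand. The same limit holds for Cx3cr1, P2ry12, Csf1r, Laptm5, Trem2, C1qc, Lpl and other members with an exon of another gene on the opposite strand. Mrc1, the mannose receptor that marks border macrophages, had 62.6, 160.5, 119.9 and 64.7 in L192P and 89.2, 99.4, 75.0 and 99.5 in WT. L192P libraries 2 and 3 were the highest and libraries 1 and 4 the lowest, and the log2 fold change was 0.16 (SE 0.27, DESeq2 adjusted p = 0.951).

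Levels can be compared between genes per length. Over all 8 libraries the members ran from 1.10 normalized counts per kilobase of the canonical transcript (Itgax) to 3224 (Ctsb). Homeostatic genes lay between 37.1 (Aif1) and 305 (P2ry12), C1qa reached 774.5 and Ctss 823.6. Spp1, at 129.1 in L192P and 83.7 in WT, lay among the homeostatic genes on this scale, and Cst7, Itgax and C3, each under 2 normalized counts per kilobase, were near the detection limit. The resting microglia genes were thus well measured, while 3 of the 35 members had a mean under 10 normalized counts in both genotypes.

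**Figure D3:**
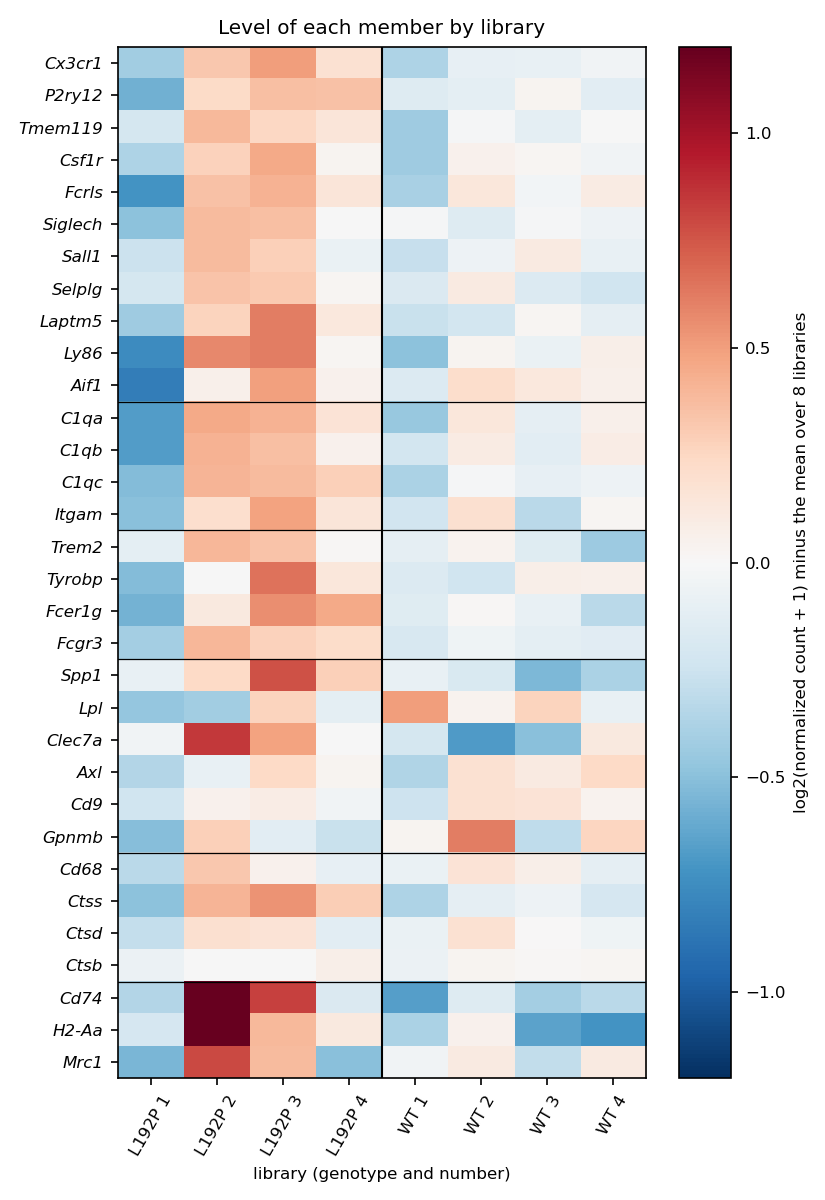
Level of each of the 32 members with a mean of at least 10 normalized counts (rows, in order of role, separated by lines) in each library (columns), as log2 of the normalized count plus 1 minus the gene's mean over 8 libraries (red above, blue below, with values beyond the scale in its end colours). The column of L192P library 1 is blue for nearly every row, and the columns of L192P libraries 2 and 3 are red for most of them.

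The highest and lowest values of the members fell in the same libraries. For 32 of 32 members with a mean of at least 10 normalized counts, L192P library 1 was the lowest of the L192P libraries, a place it took for 28.7% of all 17136 genes at that level. WT library 1 was the lowest of the WT libraries for 19 of 32 members, against 30.9% of all genes. L192P library 1 was the lowest of all 8 for 20 of 32 members, against 14.6% of all genes. At the other end, L192P library 2 was the highest of all 8 for 15 members and L192P library 3 for 12. How often these libraries were the highest over all genes was not counted, so these counts have no share to be set against. Ctsb was the only member for which L192P library 4 was the highest of the 8. The members are not independent of each other, since the same libraries carry all of them.

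**Figure D4:**
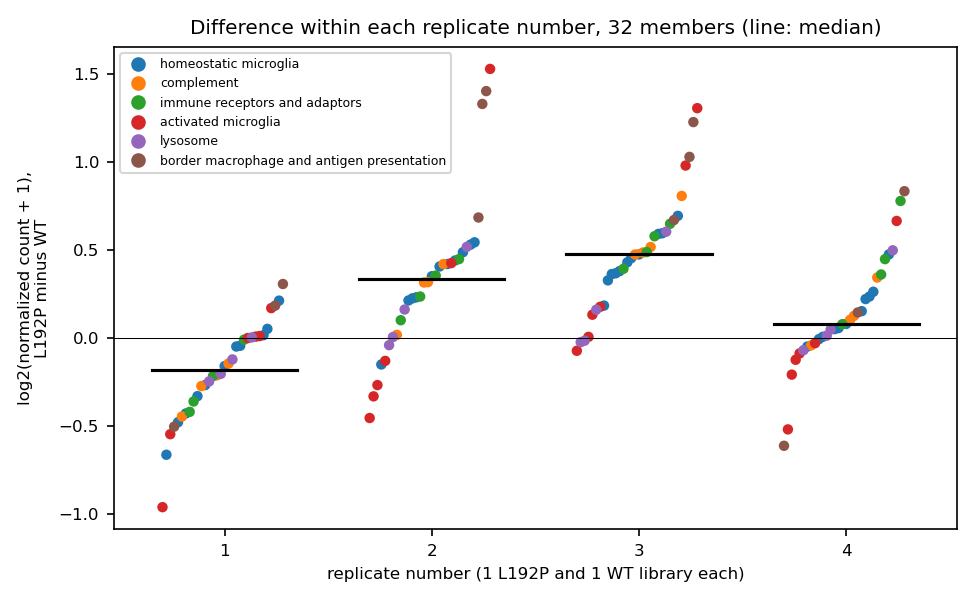
Difference of log2(normalized count + 1) between the L192P and the WT library of each replicate number (x axis), for the 32 members with a mean of at least 10 normalized counts, coloured by role, with a line at the median. The medians were -0.18, 0.33, 0.47 and 0.079 for numbers 1 to 4.

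Within replicate numbers, which paired the libraries, the members were split by number. In number 1, 9 of 32 members were higher in L192P and 23 lower, with a median difference of -0.18 in log2(normalized count + 1). In number 2, 26 were higher and 6 lower, with a median of 0.33. In number 3, 29 were higher and 3 lower, with a median of 0.47. In number 4 it was 22 and 10, with a median of 0.079. Over all 17136 genes the share that was higher in L192P lay between 49.2% and 51.1% in each number. Of all 35 members, now with the 3 of lower mean, 5 were higher in L192P within all 4 numbers: Tmem119, Csf1r, Sall1, Cd74 and H2-Aa. Another 18 were higher in 3 of 4 numbers, among them Spp1, Cx3cr1, P2ry12, C1qa, Trem2 and Ctss. The share of all genes that were higher in 4 or in 3 of the numbers was not counted, so neither count can be called few or many.

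The count of called members depended on the libraries numbered 1. Without both of them 7 of 31 tested members passed the DESeq2 test (Cx3cr1, P2ry12, Laptm5, C1qc, Spp1, Ctss and Cd74), all higher in L192P, where 3.46% of all tested genes passed and 1.65% were higher. The groups then did not overlap for 13 members, all higher, against 9.91% of all tested genes that were higher and 10.9% that were lower. The log2 fold change was above 0 for 29 of 35 members, against 49.1% of all tested genes, with a median of 0.33. Without L192P library 1 alone, 9 of 32 passed, where 1.61% of all tested genes did and 0.952% were higher, with Tmem119 and Fcgr3 in addition to these 7. L192P library 1 was the lowest L192P library for all 32 members with a mean of at least 10 normalized counts. Leaving it out thus raises the L192P mean of each of them, which it does for only a part of all genes. The 3 against 3 counts share this limit, though WT library 1, the lowest WT library for 19 of 32, was left out there too. It was the highest WT library for 3 of 32, Spp1 among them, where leaving it out lowers the WT mean. With all 8 libraries and the replicate number as a block, 3 of 29 passed (Cx3cr1, Spp1 and Cd74), all higher, where 4.25% of all tested genes did and 1.82% were higher. By edgeR, limma-voom and limma-trend 0 members passed, and 8, 4 and 6 had an unadjusted p under 0.05.

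The 7 microglia markers Cx3cr1, P2ry12, Tmem119, Csf1r, Fcrls, Siglech and Sall1 summed to 4230, 7011, 7460 and 6097 normalized counts in L192P libraries 1 to 4 and to 4478, 5546, 5600 and 5471 in WT. The libraries numbered 1 were the lowest in both genotypes, and L192P libraries 2, 3 and 4 were above every WT library. Some markers of other cells were high or low in the same libraries. The 8 markers of meningeal fibroblasts summed to 1273, 2168, 2262 and 1597 in L192P and to 1292, 1400, 1083 and 1013 in WT. The order within L192P was the one of the microglia markers. The sums of astrocyte and oligodendrocyte markers had this order too, so it was not particular to fibroblasts. Within WT the order of the fibroblast sums differed from that of the microglia markers. All 8 fibroblast markers had a log2 fold change above 0, with a median of 0.61. Of them 2 passed the DESeq2 test, Aldh1a2, an enzyme of retinoic acid synthesis, at a log2 fold change of 0.80 and an adjusted p of 0.00195, and Slc6a13, a GABA and taurine transporter, at 0.81 and 0.0229. They were called in 15 and 11 of 19 alternatives. Without the libraries numbered 1, 5 of the 8 passed, all higher in L192P, where 3.46% of all tested genes passed and 1.65% were higher. The part of meningeal tissue in the value of Spp1 and of the other members was not tested.

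The sum of 5 endothelial markers also had its lowest value in each genotype in the library numbered 1, at 210.2 in L192P and 283.2 in WT, against 399.8 to 899.3 in the other 6. The libraries numbered 1 were the lowest of their genotype for other cells as well. The astrocyte sum was 14792 and 16256 in L192P and WT library 1 and at least 21074 in the other 6. For oligodendrocytes it was 88006 and 89791, against at least 100904. For their precursors it was 2180 and 2038, against at least 2730, and for mural cells 1174 and 1284, against at least 1633. The sums of neuron markers were not lowest there, at 201672 in L192P and 202301 in WT, against 171638 to 201734 in the other 6. The part of these differences between libraries in the members' values was not tested. By DESeq2, 0 of 5 endothelial markers passed and 1 (Cdh5) had an unadjusted p under 0.05, and by edgeR 0 at either level. Markers of astrocytes (6), oligodendrocytes (6), their precursors (4), mural cells (5), choroid plexus (6) and erythroid cells (5) had 0 called genes and 0 at an unadjusted p under 0.05 with both tools. The markers with the largest absolute log2 fold change in these lists were Gfap (0.21), Mag (-0.15), Cspg4 (-0.13), Acta2 (0.42), Ttr (0.35) and Hbb-bs (0.45), in the same order. Without the libraries numbered 1 the erythroid markers differed from this. All 5 had a log2 fold change above 0, against 49.1% of all tested genes, with a median of 0.63. For 3 the groups did not overlap, all higher in L192P, against 9.91% of all tested genes that were higher. The DESeq2 test was passed by 2 globin genes, Hbb-bs at 0.74 with an adjusted p of 8.84e-07 and Hba-a1 at 0.55 with 0.00139. Of all tested genes 3.46% passed and 1.65% were higher. The erythroid sum was 1374, 3230, 3051 and 2463 in L192P libraries 1 to 4 and 2371, 2082, 1543 and 1916 in WT, so that L192P libraries 2, 3 and 4 were above every WT library, as for the microglia markers. For this sum L192P library 1 was the lowest of the 8 and WT library 1 the highest of WT. Leaving out both thus widens the difference. The part of blood in the members' values was not tested. The other 5 of these lists and the endothelial list had 0 called genes without the libraries numbered 1. Among them, the choroid plexus sum was 22752, 36345, 38266 and 16600 in L192P libraries 1 to 4. In WT it was 24526, 32724.5, 19410 and 14421.5, so that L192P libraries 2 and 3 were the highest of the 8. The part of choroid plexus in the members' values was not tested. Among 9 neuron markers 1 passed, Gad2, the GABA-synthesizing enzyme, at 0.34 and an adjusted p of 0.0235. Markers of monocytes and neutrophils were low. Of these 8 markers, Ly6g had 0 counts in all 8 libraries, and 7 had a mean under 10 normalized counts in both genotypes. Their sum lay between 17.1 and 28.8 in L192P and between 7.60 and 19.8 in WT. Their only tested gene was Ccr2, a chemokine receptor of monocytes, with 5.61 to 14.99 normalized counts in L192P and 2.34 to 4.52 in WT, or 1.59 on the log2 scale (SE 0.66, DESeq2 adjusted p = 0.324). Of 8 lymphocyte markers 6 had a mean under 10 in both genotypes. The sum of the 8 was not low, at 767.9 to 1042 in L192P and 1108 to 1329 in WT. Trbc2, a T cell receptor constant segment, was called lower, at -0.57 on the log2 scale (DESeq2 adjusted p = 0.00112). With 6 of the 8 markers so low, Trbc2 alone does not give a level of T cells, and which cells carried its reads was not tested.

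**Figure D5:**
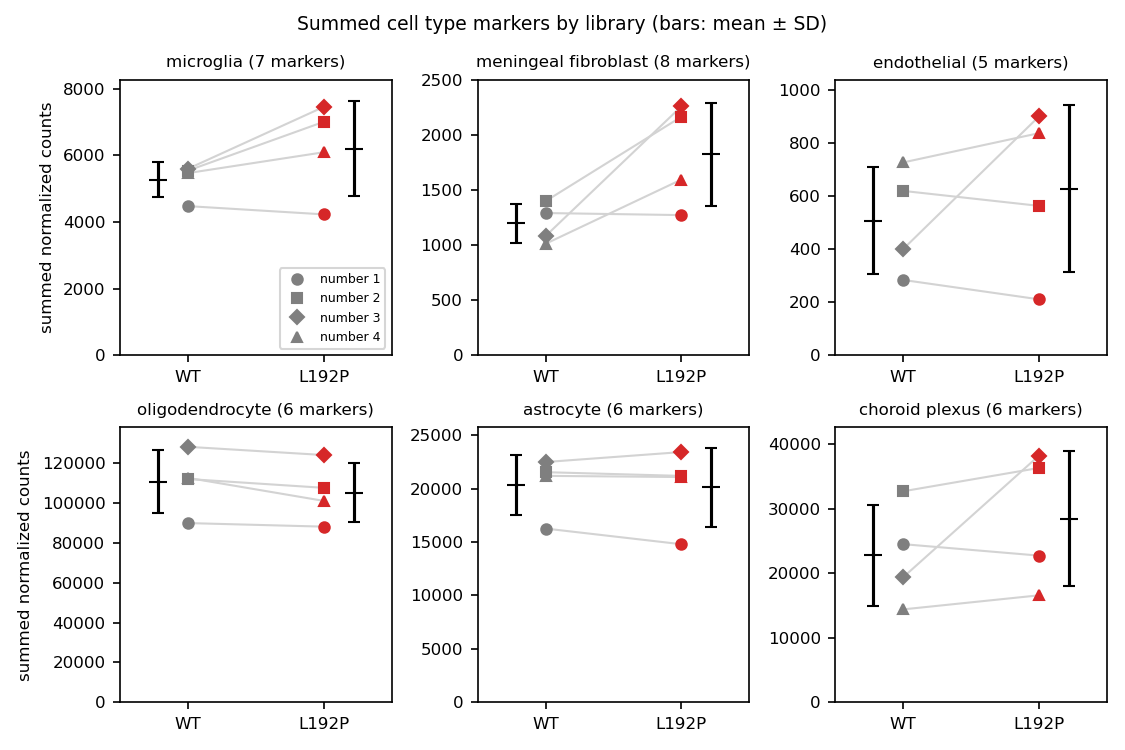
Summed normalized counts (y axis, from 0) of cell type marker lists in WT (grey) and L192P (red) libraries, with a symbol for each replicate number, lines joining libraries of 1 number and black bars for the mean ± SD of 4 libraries. The microglia sum was 6200 ± 1430 in L192P and 5274 ± 532.8 in WT. The fibroblast, astrocyte and oligodendrocyte sums show the same order of L192P libraries 1, 4, 2 and 3.

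Other genes of the microglial pathways were counted by list. Of 18 other genes of activated microglia, 17 were tested and 1 passed, Igf1, a growth factor that microglia, neurons and meningeal cells make. Igf1 had 252.2, 269.7, 288.3 and 233.6 normalized counts in L192P and 223.1, 141.2, 151.0 and 179.1 in WT, and every L192P library was above every WT library. For Igf1 the log2 fold change was 0.59 (SE 0.15) and the DESeq2 adjusted p was 0.0160 (range over 19 alternatives 0.000132 to 0.147, with 10 calls). It was lost without any 1 of L192P libraries 2 and 3 and WT libraries 2, 3 and 4. L192P library 1, which was level with WT library 1 for Spp1, was above it for Igf1. Of the 18 genes, 15 had a log2 fold change above 0, with a median of 0.13, and Apoe, the lipid carrier, had 0.051.

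The list of 12 other homeostatic genes had 0 called by DESeq2, 1 at an unadjusted p under 0.05 and a median of 0.21, and its largest value was 0.38 for Crybb1, a crystallin transcribed in microglia. Of 11 other border macrophage genes 0 passed, 2 had an unadjusted p under 0.05, and 10 had a log2 fold change above 0, with a median of 0.32 and a largest value of 0.74 for H2-Ab1, the class II partner of H2-Aa. Of 13 signals and receptors, which include Csf1, Il34 and Cx3cl1, 0 passed and 2 had an unadjusted p under 0.05, and the median was 0.025. The largest was 0.28 for Tgfbr2, a receptor of the factor that keeps microglia in the resting state. With the replicate block, Cx3cl1, the ligand of Cx3cr1, was called lower, at a log2 fold change of -0.22 and an adjusted p of 0.000148, against 0.360 without the block (range over 19 alternatives 0.000148 to 0.806), and Cd200, a neuronal inhibitor of microglia, was called higher. The ligand had a fold change opposite in sign to that of its receptor, whose call likewise needed the block or the removal of libraries. Cx3cl1 was not called without both libraries numbered 1, where Cx3cr1 was. With the block, 3 of the 9 neuron markers were also called lower and 1 higher. A relation between the ligand and its receptor was not tested.

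For 12 receptors of osteopontin and related proteins, such as Cd44 and the integrins, 0 of the 10 tested passed and 0 had an unadjusted p under 0.05, with a median of -0.042, so no difference of the receptors was detectable beside that of their ligand Spp1. The largest among the tested genes was 0.24 for Itga4, an integrin subunit. Of 12 other complement genes 0 of 11 tested passed and 3 had an unadjusted p under 0.05, with a largest absolute value of -0.64 for C1s1. Of 10 other lysosome genes 0 passed and 1 had an unadjusted p under 0.05, with a median of -0.040 and a largest absolute value of -0.15 for Tpp1, a lysosomal peptidase. Of 7 transcription factors 0 passed and 1 had an unadjusted p under 0.05: Runx1, a factor of blood and myeloid cells, at 0.73 with groups that did not overlap. Spi1, the gene of PU.1, had 0.38 (SE 0.21, DESeq2 adjusted p = 0.570). Over all these lists edgeR, limma-voom and limma-trend called 0 genes. At an unadjusted p under 0.05 edgeR had 3 of the other activated genes, 3 of the complement genes, 2 each of the border macrophage genes and of the signals and receptors, 1 each of the homeostatic genes, lysosome genes and transcription factors, and 0 of the osteopontin list.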

How the data were processed

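The authors aligned the reads of stranded mRNA libraries to GRCm39 and deposited raw counts per gene, with no pooling of replicates. The submitters' processing notes name STAR 2.7.9a, featureCounts 1.5.1 and DESeq2 1.40.2, and neither the strand setting nor the Ensembl release is given in the sources used here. The authors also deposited a table of normalized signal, counts divided by a size factor, which gave the counts back with a largest difference of 2.91e-10.

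The deposited counts of all genes were fitted with DESeq2 1.42.0 (R 4.3.3) by genotype, with independent filtering at 0.05 and no fold change shrinkage. The threshold on the adjusted p follows the methods of the study. Alternatives were edgeR 4.0.16, limma 3.58.1 (voom, and trend with pseudocounts of 1 and 0.5), TMM and total-count size factors, a minimum of 10 counts in 4 libraries, independent or Cook filtering off, a replicate block, 3 against 3 libraries, and each library left out. Programs were tested on simulated data.

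Replicate numbers come from the labels. Over 13422 genes (mean of at least 50 normalized counts) the deviations from the genotype mean correlated at 0.63, 0.38, 0.23 and 0.33 between same-numbered libraries and from -0.38 to 0.14 in the 12 other pairs, so the numbers were taken to pair the libraries. Chi-square per degree of freedom between replicates was 5.52 to 22.6, so no library was a duplicate.

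Positions, exons and UTRs are from GENCODE M39, which held 98.8% of the 55416 identifiers and all 35 members. The mature miRNA sequence is from RefSeq. The members and all lists were chosen with earlier results of these data known. All members are named, with values in every library for Spp1, for members with an unadjusted p under 0.05 and for Cx3cr1, P2ry12, Tmem119, Csf1r, C1qa, Trem2 and Mrc1. In other lists the called genes are named, or else the tested gene with the largest absolute log2 fold change, and names outside this rule were chosen after their values were seen.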

Additional observations from a re-analysis of the deposited data

Results flagged for a closer look

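A library set apart from the other 3 of its genotype was looked for in every member with a mean of at least 10 normalized counts, by dividing the distance to its closest neighbour by the spread of all 4. This gave 1 case in 64 comparisons. Chance would give 3.2 if the comparisons were independent, which they are not, since the same libraries carry all members. The screen takes 1 gene at a time and does not show a library that is low across genes. L192P library 1, the lowest of its genotype for 32 of 32 members, is such a library. P2ry12 had 732.2 normalized counts in WT library 3, against 644.7 to 659.2 in the other WT libraries, a gap of 0.834 of the range.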

How the results depend on the processing

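Of 836 values under 19 alternatives, 747 kept their direction and their side of the threshold, stayed within the spread or, for counts, changed little. Most of these values belong to members not called with all libraries, so this share does not speak for the call of Spp1. That call was kept in 8 of the 19 alternatives and lost in 11. The count of called members, 1 with all libraries, was 0 with edgeR, limma-voom, limma-trend at either pseudocount and independent filtering off, 3 with the replicate block, 7 without both libraries numbered 1, and 0 to 9 with 1 library left out (9 without L192P library 1). Spp1 kept its direction in all of them, with a log2 fold change of 0.62 (edgeR), 0.56 (limma-voom), 0.60 (limma-trend, either pseudocount) and 0.62 (independent filtering off) where it was no longer called, and 0.44 to 0.74 with 1 library left out. Without L192P library 1 or WT library 1 it was still called. Called pathway genes, 1 with all libraries, were 0 with edgeR, limma-voom and limma-trend, 2 with total-count size factors, 3 with the block, 5 without both libraries numbered 1 and 0 to 4 with 1 left out. Called markers of other cells, 4 with all libraries, were 0 with edgeR, limma-voom and limma-trend, 9 with the block, 11 without both libraries numbered 1 and 2 to 8 with 1 left out.

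Members close to 0 changed sign. Without both libraries numbered 1 the log2 fold change was 0.079 for Aif1, 0.052 for Cd68 and 0.032 for Ctsd. With total-count size factors it was 0.0082 for Cd68, 0.0056 for Ctsd and 0.021 for Ctsb. With 1 library left out the log2 fold change ran from -0.26 to 0.149 for Aif1, -0.041 to 0.36 for Tyrobp, -0.32 to 0.997 for Cst7, -0.21 to 0.0065 for Axl, -0.140 to 0.084 for Cd68, -0.089 to 0.064 for Ctsd, -0.029 to 0.017 for Ctsb and -0.149 to 0.34 for Mrc1. The replicate block, which uses the pairing of the numbers, changed no other call of a member than those of Cx3cr1 and Cd74. Causes were not tested. Depth limits Cst7, Itgax, C3 and Clec7a, which had at most 16 counts per library.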
